A study of Mus musculus with 18 samples.

Results

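The cytosolic ribosomal protein genes were taken as the rows whose symbol is Rpl or Rps followed by a number, with an optional a, x or l at the end, together with Rplp0, Rplp1, Rplp2 and Rpsa. Pseudogene names ending in -ps and the S6 kinases were left out. The rule found 79 of the 34921 complete gene rows. Of these, 31 belong to the small subunit, 45 to the large subunit and 3 to the P-stalk, the flexible arm of the large subunit. A total of 76 members passed the filter on low values, which asked for 3 libraries or more with an FPKM of 1 or above and which 14016 genes passed in all. FPKM is fragments scaled to the length of the transcript and to the number of mapped fragments of the library. The 3 members that did not pass are Rpl39l, Rpl3l and a row that is named Rpl32l but annotated as a processed pseudogene on chromosome 10.

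Total RNA was sequenced from micro-punched brain tissue of male C57BL/6 mice aged 9 weeks. In the stroke groups a photothrombotic lesion had been made on the right side: rose bengal, a photosensitive dye, was injected at 100 mg/kg, and a 532 nm laser then lit the skull for 15 min, so that vessels under the light clot. Each of the 6 groups had 3 libraries from separate animals, per the labels' protocol. The stroke groups are punches of the lesion at 4 h (libraries 2, 3 and 6), 1 day (1, 3 and 4), 3 days (1, 2 and 8) and 10 days (1, 2 and 5). The contralateral left group (1, 3 and 5) holds left-side punches. The protocol takes them from mice with stroke at a time that is not given, whereas their disease state reads sham. Contralateral left and sham right libraries 1 and 3 carry titles that differ only in the side, so they may be both sides of the same mice, which the labels do not state. The sham right group (1, 2 and 3) holds the matching right-side region of sham mice and served as the control of every comparison unless another group is named. The dye and light settings are recorded alike for all 18 libraries, so what the sham mice received cannot be told from them. Lesion punches are mixed tissue, so fewer cells of a type and less RNA per cell cannot be told apart.

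Ribosomes are made of ribosomal RNA and a fixed set of ribosomal proteins. The small subunit reads the mRNA, and the large subunit joins the amino acids and carries the P-stalk, on which Rplp0 anchors pairs of Rplp1 and Rplp2 and which recruits the translation factors that use GTP. Ribosomal protein mRNAs are short and abundant, and most begin with a run of pyrimidines at the cap, the TOP motif (terminal oligopyrimidine), through which mTOR signalling controls their translation. Neurons, glia and infiltrating leukocytes all need them, and a proliferating cell needs more of them than a resting one.

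These start regions are shown because they hold a sequence feature that was more frequent at the starts of members than at those of all genes. Each covers 70 bases before and 30 from the listed transcription start on, from RefSeq with the build GRCm38.p6, read along the gene's strand. Capitals mark the longest run of C and T bases between 15 bases before and 25 bases after the start. The marked runs of Rplp2 and Rps27 span the listed start, and those of Rps25 and Rps27l end before it. Those of Rps26 and Rplp0 begin 3 and 11 bases after it. The mark of Rps25 starts at the edge of this window, and its run of C and T continues before the mark. The capitals are therefore not a call of a TOP motif. Rplp0 (chr5:115559397-115559496, plus strand) and Rplp2 (chr7:141447581-141447680, plus) encode P-stalk proteins. Rps27 (chr3:90213619-90213718, minus) and Rps27l (chr9:66946016-66946115, plus) encode alternative forms of the small-subunit protein eS27. Rps26 (chr10:128626477-128626576, minus) and Rps25 (chr9:44407644-44407743, plus) encode small-subunit proteins whose values stood at the ends of the range described further on.
Rplp0: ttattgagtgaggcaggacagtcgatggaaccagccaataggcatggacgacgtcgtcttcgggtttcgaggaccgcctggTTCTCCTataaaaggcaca
Rplp2: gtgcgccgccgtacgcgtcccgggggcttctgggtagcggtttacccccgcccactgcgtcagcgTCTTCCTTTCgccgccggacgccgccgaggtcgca
Rps27: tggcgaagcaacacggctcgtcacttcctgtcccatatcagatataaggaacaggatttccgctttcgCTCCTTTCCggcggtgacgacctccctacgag
Rps27l: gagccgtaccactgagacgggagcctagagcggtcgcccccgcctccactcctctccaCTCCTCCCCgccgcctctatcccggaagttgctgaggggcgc
Rps26: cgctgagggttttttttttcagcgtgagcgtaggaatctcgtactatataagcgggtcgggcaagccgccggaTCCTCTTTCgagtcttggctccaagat
Rps25: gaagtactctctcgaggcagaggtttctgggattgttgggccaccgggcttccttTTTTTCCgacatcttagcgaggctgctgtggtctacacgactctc
Among 68 starts of the 57 members that matched the promoter table by symbol, 36 (52.9%) had a pyrimidine run of 7 or more bases in this window on the sense strand, against 23.6% of 32851 starts of all genes. The median length of the longest run was 7 bases for members and 5 for all starts. The letters CTTTC occurred in 17 of the members' starts (25%) and in 5.28% of all starts on the sense strand. On the opposite strand the shares were 5.88% for members and 4.94% for all starts, so the excess is on the strand that is transcribed. Rplp2, Rps27 and Rps26 carry CTTTC inside the marked run. A listed start is an annotation and not a start measured in these libraries.

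The members spanned a wide range of levels. Rplp1 was the highest, with a mean of 1013 FPKM over the 18 libraries (429.9 to 2009). Then came Rps15, a small-subunit protein at the decoding site, at a mean of 516 FPKM. The large-subunit genes Rpl8 (309.6 FPKM), Rpl23a (281 FPKM) and Rpl4 (279.9 FPKM) and the small-subunit gene Rps14 (259.7 FPKM) followed. At the low end of those that passed were Rps4l (13.2 FPKM), named as a relative of the X-linked Rps4x and annotated as a transcribed processed pseudogene, and Rps13 (13.8 FPKM). Rps4x itself averaged 239 FPKM.

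**Figure D1:**
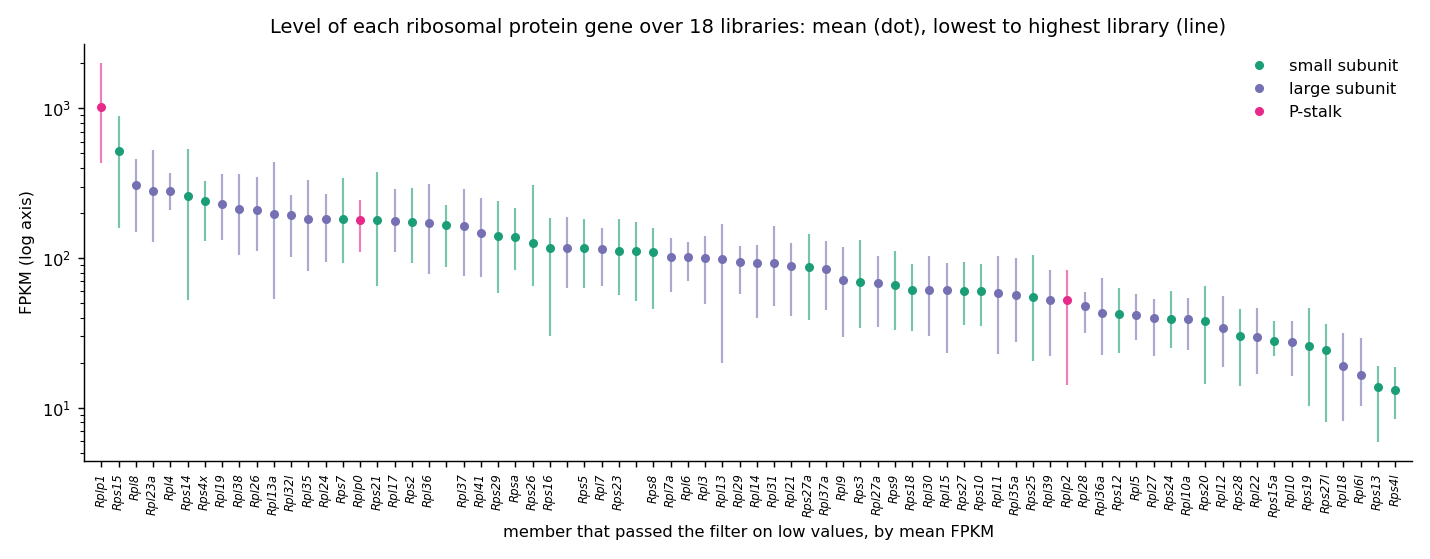
FPKM (log axis) of the 76 members that passed the filter, ordered by their mean over 18 libraries (dot), with the lowest and highest library as the ends of each line. Rplp1 stands at 1013 FPKM and Rps4l at 13.2 FPKM.

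Ribosomal protein genes have many near-identical pseudogenes. The table holds 224 rows with -ps names, 55 of the 79 members have at least 1, and for 13 members the pseudogenes' summed mean FPKM was above the member's own. The -ps rows summed to between 27% and 42.4% of the members' sum in a library, highest in 10 day library 5. Levels of members with expressed copies are therefore uncertain, since reads can be assigned to either. Rplp0 is not among them: its only -ps row averaged 0.0315 FPKM. By contrast, Rpl10 has 5 -ps rows with a summed mean of 159 FPKM beside its own 27.6 FPKM.

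The eS27 genes show where such copies can and cannot be separated. Rps27 (chromosome 3) and the intronless copy Rps27rt (chromosome 9, outside the rule by its name) have the same coding sequence over all 255 bases, so their values of 60.1 and 146 mean FPKM cannot be assigned by coding reads. Rps27l (chromosome 9), a paralog described as induced by p53, has a coding sequence of the same length that differs from Rps27 at 61 positions (76.1% identity). The longest reading frames of the reference transcripts in GENCODE M21 are given, with capitals where Rps27l differs from Rps27.
Rps27: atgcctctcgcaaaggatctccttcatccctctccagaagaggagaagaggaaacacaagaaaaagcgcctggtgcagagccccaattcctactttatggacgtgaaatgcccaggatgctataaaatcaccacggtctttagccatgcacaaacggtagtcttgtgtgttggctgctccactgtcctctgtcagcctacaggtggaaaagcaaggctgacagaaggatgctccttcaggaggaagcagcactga
Rps27l: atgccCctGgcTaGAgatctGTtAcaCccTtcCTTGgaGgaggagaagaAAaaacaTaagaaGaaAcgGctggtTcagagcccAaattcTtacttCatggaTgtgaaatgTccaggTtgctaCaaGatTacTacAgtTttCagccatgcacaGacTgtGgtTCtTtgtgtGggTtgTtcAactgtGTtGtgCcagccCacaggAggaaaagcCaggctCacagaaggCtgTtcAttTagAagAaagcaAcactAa
Rps27l had no -ps row in the table.

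The 76 members, among which Rps4l and Rpl6l are annotated as pseudogenes, are short by annotation. Their longest annotated transcript had a median of 1048 bases, against 3434 bases for the 12191 protein-coding genes tested outside the rule, and 35 of them (46.1%) were under 1000 bases, against 4.14%. A non-coding RNA such as a snoRNA is annotated as hosted in 30 members (39.5%), against 8.88% of the others. Both are properties of the annotation and not of these libraries.

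At 4 h the members stood lower than in sham right as a set, but no single member passed the test. All 76 had a log2 fold change below 0, as had 49.3% of all genes tested. Their median log2 fold change was -0.52, against 0.01 over all genes tested, and the members ran from -0.80 (Rps25) to -0.08 (Rpl22). Without 4 h library 6 the median was -0.29, with 75 of 76 below 0. By subunit the medians were -0.53 for 31 small-subunit genes, -0.51 for 42 large-subunit genes and -0.35 for 3 P-stalk genes. In 44 members (57.9%) all 3 values at 4 h lay below all 3 of sham right, as was the case for 17.2% of all genes. Members tended to shift together within a library, so such counts, here and below, are not independent observations. The comparison remains one of 3 libraries with 3. Fold changes are on the log2(FPKM + 1) scale. With limma and Benjamini-Hochberg adjustment over the 14016 genes, 0 of 76 members were called at an adjusted p under 0.05, where 2.18% of all genes were called. A total of 10 members, all lower, had an unadjusted p under 0.05.

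The lowest fold changes at 4 h belonged to Rps25, whose protein is used by viral internal ribosome entry sites, Rpl23a, a protein at the exit of the peptide tunnel, and Rps21. Rpl23a had 212, 205 and 128 FPKM at 4 h, against 316, 277 and 324 FPKM in sham right. Its groups did not overlap, and its log2 fold change was -0.78 ± 0.39 (SE, n = 3 each; limma adjusted p = 0.339). Rps21 had 149.6, 154 and 64.7 FPKM at 4 h, against 222, 165 and 199.95 FPKM in sham right (log2 fold change -0.76 ± 0.51, adjusted p = 0.470, limma). Its 4 h values were all lower, with library 6 far below the other two. Rps25 had 39.6, 54.3 and 20.5 FPKM at 4 h, against 71.9, 45.4 and 74.0 FPKM in sham right (-0.80 ± 0.38, limma adjusted p = 0.310), and its groups overlapped.

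The members nearest to 0 at 4 h were Rplp0, Rps4l and Rpl22, the last a protein that binds many RNAs outside the ribosome. Rps4l had 13.5, 13.4 and 13.6 FPKM at 4 h, against 14.6, 12.1 and 16.8 FPKM in sham right (-0.08 ± 0.22, limma adjusted p = 0.882). Rpl22 had 28.7, 24.4 and 18.8 FPKM at 4 h, against 32.4, 28.5 and 17.0 FPKM in sham right (-0.08 ± 0.26, limma adjusted p = 0.903). Both overlapped with sham right.

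At 1 day the median of the members lay closer to sham right than at 4 h, with no member called in either comparison. Their median log2 fold change was -0.23, against 0.03 over all genes tested, and 69 of 76 were below 0, as were 42.9% of all genes. This median moved with single libraries: without 1 day library 4 it was -0.08, with 57 below 0, and without 1 day library 3 it was -0.35, with 74 below 0. No member was called (limma, 1.18% of all genes called), and 1 member had an unadjusted p under 0.05. The lowest were Rps4l (-0.47), Rpl35a (-0.45) and Rpl37 (-0.44), and the highest were Rplp0 (0.17), Rpl22 (0.16) and Rps27l (0.05). Compared with 4 h, 75 of 76 members had higher means at 1 day, by a median of 0.29 on the log2 scale, while 44.9% of all genes lay below 0. Without 4 h library 6 that median was 0.07, against 0.03 over all genes, with 16 of 76 below 0, and without 1 day library 3 it was 0.16. None was called in that comparison (1.23% of all genes called by limma), and 2 had an unadjusted p under 0.05.

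At 3 days the members straddled sham right, with a median log2 fold change of -0.02 against 0.08 over all genes tested and 40 of 76 below 0, as were 36.8% of all genes. Over the fits without 1 library this median ran from -0.10 to 0.03. Of the 76, 1 was called, Rplp0, where 7.36% of all genes were called. The highest were Rplp0 (0.70), Rps27l (0.35) and Rpl28 (0.29), and the lowest were Rps21 (-0.43), Rps25 (-0.37) and Rpl37 (-0.35). At 3 days 74 of 76 members had higher means than at 1 day, by a median of 0.18, while 42.2% of all genes lay below 0, and none was called in that step (5.22% of all genes called by limma), with 2 at an unadjusted p under 0.05. Without 1 day library 4 the median of that step was 0.05, against 0.07 over all genes, with 26 of 76 below 0, and without 1 day library 3 it was 0.31. All 76 had higher means at 3 days than at 4 h, by a median of 0.43, while 39.9% of all genes lay below 0. Without 4 h library 6 it was 0.22, with 2 below 0. In that comparison 2 members were called higher, Rplp0 and Rps27l (2.63%), where 9.36% of all genes were called higher. In 46 members all 3 values at 3 days lay above all 3 at 4 h, as was the case for 23.7% of all genes.

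At 10 days the median of the members was 0.02, against -0.07 over all genes tested, and 37 of 76 were below 0, as were 60.2% of all genes. Single libraries set its sign: without 10 day library 5 it was 0.27, with 2 of 76 below 0, without library 1 it was -0.13, with 48 below 0, and without library 2 it was -0.11, with 46 below 0. Without sham right library 2 it was -0.05. No member was called (limma, 7.13% of all genes called), and 3 had an unadjusted p under 0.05, all higher. The highest were Rps26 (0.63 ± 0.29, adjusted p = 0.257), Rplp0 (0.59 ± 0.18, adjusted p = 0.0619) and Rps27l (0.56 ± 0.34, adjusted p = 0.378, limma). The lowest were Rpl13 (-0.66), Rps14 (-0.55) and Rps15 (-0.48), and these rest on library 5, described further on. Against 3 days the median was 0.07 and 30 of 76 lay below 0, as did 71.5% of all genes, with none called (limma, 2.02% of all genes called) and none at an unadjusted p under 0.05. That median was 0.29 without 10 day library 5, -0.03 without library 1 and -0.02 without library 2.

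**Figure D2:**
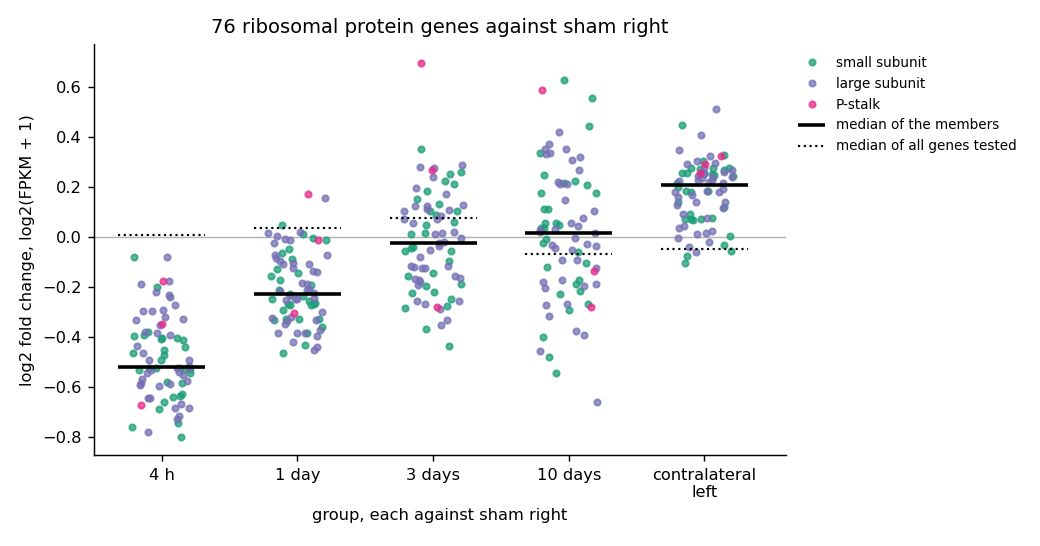
Log2 fold change of 76 members (dots, by subunit) in each stroke group and in contralateral left, each against sham right, with the median of the members (solid bar) and of all 14016 genes tested (dotted). The members' median is -0.52 at 4 h and -0.23 at 1 day, and 0.21 in contralateral left.

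The largest number of calls was between the 2 ends of the time course. At 10 days 13 members were higher than at 4 h by the test (17.1%), where 15.8% of all genes were called and 9.58% were called higher. Among them were Rplp0, the small-subunit genes Rps4x, Rps26 and Rps27l, and the large-subunit genes Rpl6, Rpl6l, Rpl7, Rpl10, Rpl10a, Rpl39 and a row named Rpl32l that is Rpl32 by its Ensembl identifier. None was called lower, and 72 of 76 were above 0, with a median of 0.52 against -0.07 over all genes, of which 57.3% lay below 0. In 26 members all 3 values at 10 days lay above all 3 at 4 h, as for 16.3% of all genes. Without 4 h library 6 the number called was 2 (2.63%, where 9.9% of all genes were called) and the median 0.30. Without 10 day library 5 the number called was 16 (21.1%, where 11.2% were) and the median 0.80. This comparison and those of 3 days with 4 h and of 10 days with 1 day were added after the data had been seen. The comparison of 10 days with 1 day called none (limma, 7.25% of all genes called), with 9 at an unadjusted p under 0.05. A test of any difference from sham right over the 4 times called 2 members, Rplp0 (adjusted p = 0.00734) and Rpl7 (adjusted p = 0.0417), where the limma F-test called 13.5% of all genes.

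Of the 76 members, 72 had their lowest group mean at 4 h, 3 at 10 days and 1 at 1 day. The highest group mean was in contralateral left for 48, at 10 days for 18, at 3 days for 8 and in sham right for 2. In contralateral left the members' median log2 fold change against sham right was 0.21, against -0.05 over all genes tested, with 8 of 76 below 0, as were 59.9% of all genes, and none called (limma, 0.0285% of all genes called, no member at an unadjusted p under 0.05). The largest were Rpl22 (0.51), Rps14 (0.45) and Rpl13a (0.41), and the smallest were Rps4l (-0.11), Rps28 (-0.08) and Rpl27 (-0.06). That group is also the most uneven: without library 5 its median was 0.57, without library 1 it was 0.03 and without library 3 it was 0.00144. Without sham right library 2 it was 0.14.

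The FPKM values of the 3 P-stalk genes did not keep a fixed ratio. Rplp0 had 150.3, 133 and 109.7 FPKM at 4 h, 151, 177 and 169 FPKM at 1 day, 246, 229 and 241 FPKM at 3 days and 229, 231 and 204 FPKM at 10 days. It had 195, 219 and 126 FPKM in contralateral left and 154, 138 and 148 FPKM in sham right. All 6 values at 3 and 10 days lay above all 3 of sham right. Against sham right the log2 fold change was 0.70 ± 0.18 at 3 days (SE, n = 3 each; limma adjusted p = 0.0226). The values were 0.59 at 10 days, 0.17 at 1 day and -0.17 at 4 h, none of them called, with a limma adjusted p of 0.0619 at 10 days, 0.908 at 1 day and 0.645 at 4 h. Against 4 h it was higher by 0.87 at 3 days (adjusted p = 0.00356) and by 0.76 at 10 days (adjusted p = 0.00811, limma).

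The call at 3 days ended with median-ratio scaling (adjusted p = 0.0865), with contralateral left as the control (0.141) and in 5 of the 6 fits without 1 of the libraries compared, where the adjusted p ran from 0.0531 to 0.101 (limma). Only the fit without 3 day library 2 kept it (adjusted p = 0.0458, limma). With each library centred on the median of the members, Rplp0 was higher by 0.70 at 3 days than in sham right (adjusted p = 0.244), and than at 4 h by 0.45 at 3 days (adjusted p = 0.550) and 0.47 at 10 days (adjusted p = 0.280, limma), so no call was left. The call at 10 days against 4 h also ended in a fit of these 2 groups alone (adjusted p = 0.0581, limma). The calls against 4 h held in all 6 fits without 1 library, with an adjusted p of at most 0.0245 at 3 days and 0.0486 at 10 days (limma).

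Rplp1, the most abundant member, had 892, 787 and 429.9 FPKM at 4 h, 874, 1116 and 662 FPKM at 1 day, 913, 979 and 764 FPKM at 3 days and 1218, 1229 and 614 FPKM at 10 days. It had 2009, 1934 and 578 FPKM in contralateral left and 1243, 904 and 1087 FPKM in sham right. It was above all 3 sham right values in 2 libraries only, both of contralateral left. The ratio of Rplp0 to Rplp1 was 0.269, 0.234 and 0.315 at 3 days, against 0.124, 0.153 and 0.136 in sham right. The 3 day ratios all lay above those of sham right. So did those at 4 h (0.169, 0.169 and 0.255), 1 day (0.172, 0.159 and 0.255) and 10 days (0.188, 0.188 and 0.333). In contralateral left they were 0.0970, 0.113 and 0.219. In every group it was highest in the library where other protein-coding genes under 1000 bases had their lowest median. The longest annotated transcript is 1358 bases for Rplp0 and 499 bases for Rplp1. The ratio was not tested, nor was the part of transcript length in it. Rplp2 had 64.2, 60.6 and 54.9 FPKM at 3 days, against 53.8, 44.1 and 51.2 FPKM in sham right. Its 3 day values were all above those of sham right, without a call (0.27, limma adjusted p = 0.845).

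**Figure D3:**
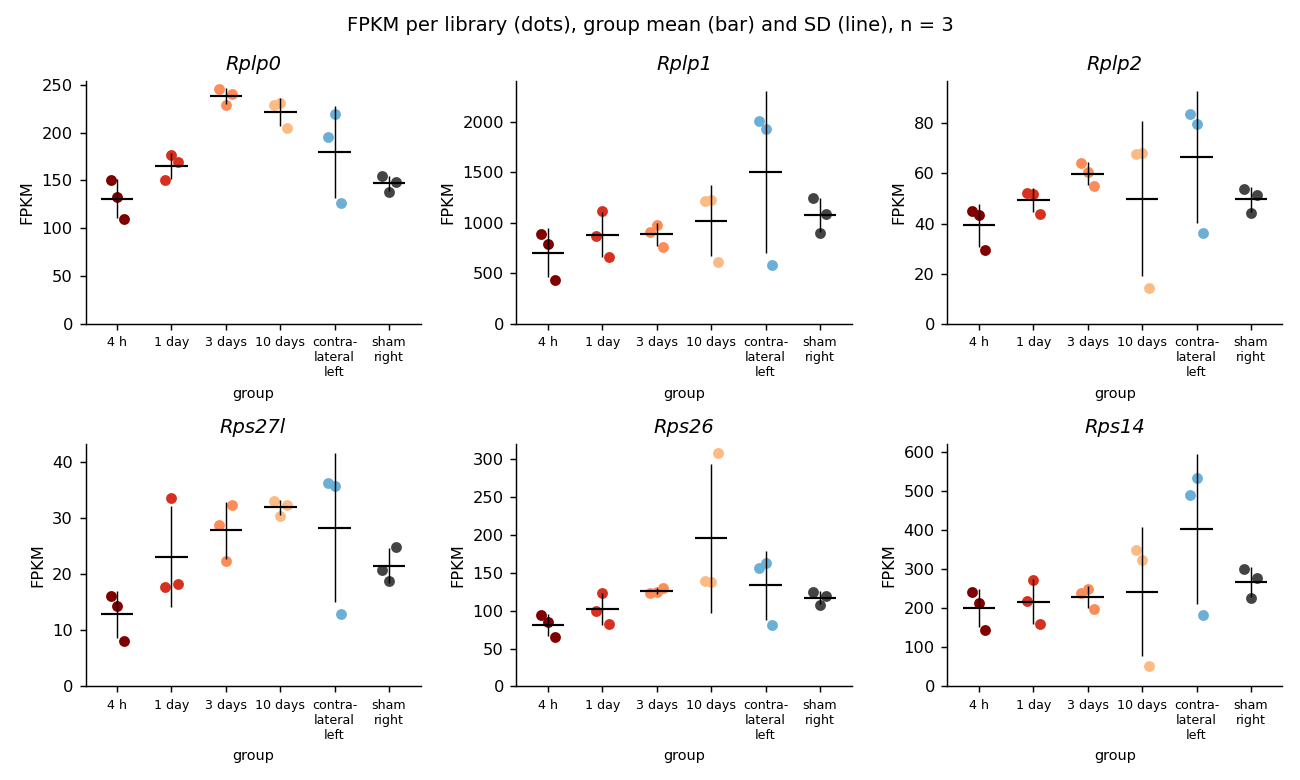
FPKM of 6 members in every library (dots) with the group mean (bar) and SD (line), n = 3 per group, on linear axes from 0. Rplp0 lies between 204 and 246 FPKM at 3 and 10 days, and 10 day library 5 stands apart in Rplp2, Rps26 and Rps14.

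Rps27l, the p53-responsive form of eS27, had 16.2, 14.3 and 8.07 FPKM at 4 h, 17.7, 33.6 and 18.2 FPKM at 1 day, 28.8, 22.4 and 32.4 FPKM at 3 days and 33.1, 30.4 and 32.3 FPKM at 10 days. It had 36.3, 35.7 and 13.02 FPKM in contralateral left and 20.8, 18.9 and 24.9 FPKM in sham right. The values at 10 days lay above and those at 4 h below all 3 of sham right. It was higher by 1.301 on the log2 scale at 10 days than at 4 h (adjusted p = 0.0152) and by 1.097 at 3 days than at 4 h (adjusted p = 0.0473, limma). The call at 3 days held in 1 of 6 fits without 1 library and that at 10 days in 5 of 6, the exception being without 4 h library 6 (adjusted p = 0.0877, limma). Rps27 showed no call: it had 94.9, 67.1 and 37.7 FPKM at 10 days, against 46.2, 54.4 and 35.8 FPKM at 4 h.

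Among the other members called between 10 days and 4 h, Rpl7 had the smallest adjusted p. It had 159, 158 and 143 FPKM at 10 days, against 97.8, 91.6 and 65.5 FPKM at 4 h, a log2 difference of 0.86 (adjusted p = 0.00699, limma) that was called in all 6 fits without 1 library. Rps4x had 326, 313 and 258 FPKM at 10 days, against 203, 184 and 131 FPKM at 4 h (0.81, adjusted p = 0.0204, limma). Rpl39, a small protein lining the peptide tunnel, had 82.8, 66.4 and 51.1 FPKM at 10 days, against 37.4, 40.7 and 22.1 FPKM at 4 h (1.00, adjusted p = 0.0413, limma). In all of these the 10 day values lay above the 4 h values without overlap. Rps26, which contacts mRNA upstream of the start codon, had 139.6, 139 and 309 FPKM at 10 days, against 94.3, 85.0 and 65.6 FPKM at 4 h (1.16, adjusted p = 0.0140, limma). Without 10 day library 5 its difference was 0.78 (adjusted p = 0.0615, limma). Rpl6l, annotated as a processed pseudogene, likewise lost its call without that library (0.54, adjusted p = 0.0787, limma; 0.75 and 0.0168 with it).

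In 10 day library 5 the members did not differ from the other 10 day libraries by a common factor. Relative to the mean of 10 day libraries 1 and 2, they spread from -2.65 on the log2 scale for Rps14 to 1.14 for Rps26, and 26 of 76 were below -1. The width between their 10th and 90th percentile was 1.45 in that library, against 0.20 to 0.94 in the other 17 libraries. The widths of 10 day libraries 1 and 2 (0.83 and 0.94) are taken against a mean that contains library 5. In contralateral left library 5 the width was 0.92, with values from -2.04 (Rpl13a) to 0.66 (Rps4l) and 49 of 76 below -1. All genes tested spread by 1.33 there and by 0.39 to 1.42 elsewhere. Rps14 had 349.8, 324 and 52.7 FPKM in 10 day libraries 1, 2 and 5. Rpl13 had 120.4, 120.0 and 20.1 FPKM, and Rps15 had 621, 623 and 159.5 FPKM. Rplp2 had 67.7, 68.0 and 14.2 FPKM, so that the ratio of Rplp0 to Rplp2 was 14.4 in library 5, against 2.33 to 4.39 in the other 17 libraries. Rpl4 was alike in all 3 at 309, 319 and 309 FPKM, and so was Rps27l. Without library 5 the 10 day log2 fold changes against sham right of Rpl13, Rps14 and Rps15 were 0.18, 0.34 and 0.17, above 0 in place of below.

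Within groups the members tended to lie above or below their group mean together. In contralateral left library 5, 75 of 76 members were below their group's mean, with a median deviation of -0.75 on the log2 scale. In 4 h library 6 75 of 76 were below, with a median of -0.41, and in 1 day library 4 75 of 76, with a median of -0.26. In 10 day library 5 73 of 76 were below, with a median of -0.52. In 3 day libraries the medians were 0.02, 0.04 and -0.07. The SD within groups had a median of 0.41 on the log2 scale over members, against 0.22 over all genes tested.

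**Figure D4:**
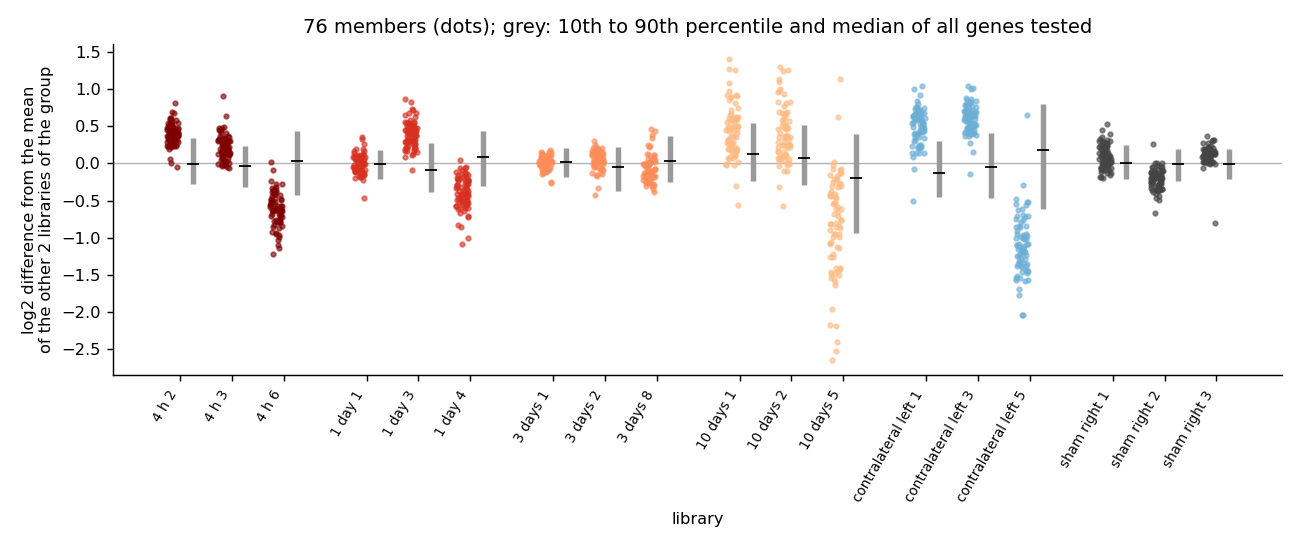
Log2 difference of each library from the mean of the other 2 libraries of its group, for 76 members (dots), with the 10th to 90th percentile (grey bar) and the median (black mark) of all genes tested. Most members lie below 0 in 4 h library 6, 1 day library 4, contralateral left library 5 and 10 day library 5. They run from -2.04 to 0.66 in contralateral left library 5 and from -2.65 to 1.14 in 10 day library 5.

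Other short genes deviated in the same direction in these libraries. The 505 other protein-coding genes whose longest transcript is under 1000 bases deviated by a median of -0.46 in contralateral left library 5, -0.28 in 4 h library 6, -0.17 in 1 day library 4 and -0.43 in 10 day library 5. At 4 h against sham right these genes had a median log2 fold change of -0.34, with 85.0% below 0, beside -0.52 and all 76 for the members. At 1 day it was -0.16, at 3 days -0.10 and at 10 days -0.19. The part of transcript length or RNA quality in the result at 4 h was not tested.

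The summed FPKM of the 79 members was 5080 to 8322 at 4 h, 6805 to 10014 at 1 day, 8775 to 9650 at 3 days and 6956 to 11727 at 10 days. It was 6381 to 15316 in contralateral left and 8699 to 10357 in sham right. As a share of the FPKM of nuclear genes it was 2.28% to 3.31% at 4 h, below the 3.44% to 3.93% of sham right in all 3 libraries. At 3 days the share was 3.60% to 3.74%. Mitochondrially encoded genes took 24.4% to 44.6% of the FPKM of a library. With all libraries rescaled without them, 74 of 76 members were below 0 at 4 h, with a median of -0.40 against 0.10 over all genes. The sum of the small-subunit genes stayed at 0.539 to 0.575 of that of the large-subunit and P-stalk genes in the 18 libraries. It was lowest in contralateral left library 5 and highest in 10 day library 2.

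**Figure D5:**
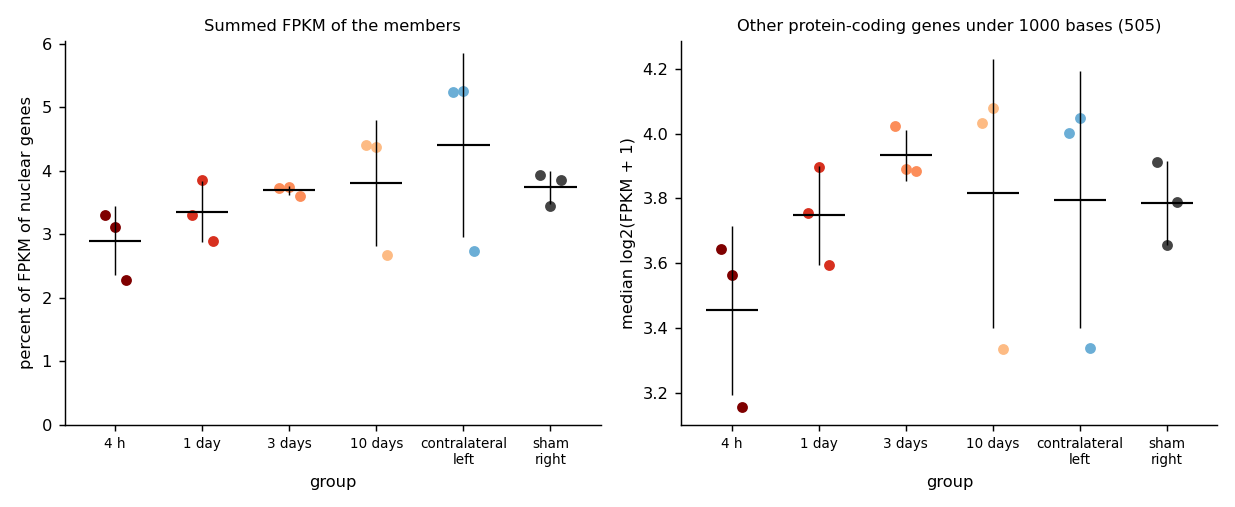
Left, summed FPKM of the members as a percent of the FPKM of nuclear genes, per library (dots), with group mean (bar) and SD (line), n = 3. Right, the median log2(FPKM + 1) of 505 other protein-coding genes under 1000 bases in the same libraries, where the 4 h group and the libraries numbered 5 are also low (axis not from 0).

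How many members were called at 4 h depended on 2 libraries that this comparison does not contain. Contralateral left library 5 and 10 day library 5 enter the common estimate of the spread. They are also the libraries with the most members below -1 on the log2 scale relative to the rest of their group (49 and 26). Without both, the same fold changes at 4 h gave 16 members lower by the test (21.1%), where 12.9% of all genes were called. That fit kept 4 h library 6, and no fit left it out together with both. Calls at 4 h are listed next. Among them were Rps4x, Rps12, Rps18, Rps26, Rpl7, Rpl23a, Rpl26, Rpl27, Rpl30, Rpl31, Rpl32l, Rpl35, Rpl35a, Rpl36a and Rpl37. At 3 days against 4 h, where the fold changes are also the same, 28 were then called (36.8%), where 19.4% of all genes were. The comparisons that contain 1 of the 2 libraries changed in their fold changes too. At 10 days against 4 h 69 of 76 were then higher by the test (90.8%), where 20.4% of all genes were called, with a median of 0.80. At 3 days against sham right the call was Rplp0 (12.6% of all genes called), and at 10 days the calls were Rplp0, Rpl10a and Rps12 (7.33%). At 3 days against 1 day 2 were called (9.2% of all genes), Rplp0 and Rps4l, at 10 days against 1 day 12 (8.44%) and at any time 42 (23.6%). In contralateral left 38 members were higher by the test (50% of members), where 19.7% of all genes were called, with a median of 0.57.

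Of the paralogs with restricted expression in other tissues, Rpl3l, the striated muscle form of Rpl3, was at 0.0569 to 0.237 FPKM in the 18 libraries. Rpl39l, the form of Rpl39 known from male germ cells, had 0.634, 1.00 and 0.409 FPKM at 3 days, against 0.0984, 0 and 0.0593 FPKM in sham right. All 3 values at 3 days were above the rest of the stroke groups and both controls, where the highest was 0.387 FPKM at 10 days. It did not pass the filter. With no filter on low values its log2(FPKM + 1) difference was 0.66 (limma adjusted p = 0.00541), where 3.22% of 34921 genes were called. Its level stayed far below that of Rpl39, at 53.1, 52.2 and 62.8 FPKM in the same libraries.

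Members with known roles outside translation or in disease were lower at 4 h than in sham right, without a call. This does not set them apart, since all 76 members had a log2 fold change below 0 there and none was called. Rpl5 and Rpl11 bind Mdm2 together with 5S rRNA and so stabilise p53. Rpl5 averaged 34.5 ± 5.30 FPKM at 4 h and 40.4 ± 2.23 FPKM in sham right, and Rpl11 42.4 ± 11.4 FPKM at 4 h and 60.8 ± 6.79 FPKM in sham right (SD, n = 3 each). Rps19, whose mutation causes Diamond-Blackfan anaemia in people, averaged 18.6 ± 6.16 FPKM at 4 h and 26.3 ± 3.68 FPKM in sham right. Rpl38, which is needed for the translation of Hox mRNAs in mouse embryos, averaged 146 ± 36.3 FPKM at 4 h and 229.8 ± 11.4 FPKM in sham right (log2 fold change -0.69, limma adjusted p = 0.238). Rpl13a, a part of the GAIT complex that silences inflammatory mRNAs in human monocytes, averaged 134 ± 48.8 FPKM at 4 h and 207 ± 36.3 FPKM in sham right. Rpsa, also known as the laminin receptor, averaged 103 ± 21.3 FPKM at 4 h and 135 ± 17.5 FPKM in sham right. Rps3, also a DNA repair enzyme, averaged 51.6 ± 15.6 FPKM at 4 h and 72.9 ± 11.8 FPKM in sham right.

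Rpl23, Rps6 and Rpl34 are present by Ensembl identifier under other symbols and so fall outside the rule. Rpl23 averaged 71.8 ± 18.8 FPKM at 4 h and 108 ± 8.58 FPKM in sham right, Rpl34 34.5 ± 8.52 and 54.5 ± 5.50 FPKM, and Rps6, the substrate of the S6 kinases, 120.3 ± 20.4 and 148 ± 16.9 FPKM at 4 h and in sham right (SD, n = 3 each). Rack1, the signalling scaffold of the small subunit, averaged 36.2 ± 1.69 FPKM at 3 days and 26.8 ± 2.05 FPKM in sham right (log2 fold change 0.42, limma adjusted p = 0.334). Of the paralogs Rpl7l1, Rpl22l1 and Rpl36al none was called either, and the smallest adjusted p over these genes and comparisons with sham right was 0.297 (limma). Rpl10l was not analysed here.

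Genes that work with the ribosome were read from 6 lists, by their calls against sham right. Of all genes tested, limma called 2.18% at 4 h, 1.18% at 1 day, 7.36% at 3 days and 7.13% at 10 days. At 4 h 49.3% of all genes lay below 0. Of 39 initiation factor genes tested, none was called at any time (limma, smallest adjusted p = 0.158), with 2 at an unadjusted p under 0.05 at 4 h. Of 12 elongation factor genes, Eef2k, the kinase that inactivates elongation factor 2, rose at 4 h (0.81, adjusted p = 0.0474, limma), and Eef1a1, which delivers aminoacyl-tRNA, rose at 10 days (0.48, adjusted p = 0.0400, limma). Of 13 genes with TOP mRNAs outside the rule, Pabpc1, the poly(A)-binding protein, rose at 3 days (0.71, adjusted p = 0.0209) and at 10 days (0.91, adjusted p = 0.00293, limma). The snoRNA host gene Snhg1 rose at 4 h (0.50, adjusted p = 0.0406) and 3 days (0.41, adjusted p = 0.0488, limma). The median of that list at 4 h was -0.34, with 11 of 13 below 0. Of 43 ribosome assembly genes, Dkc1, the pseudouridine synthase of the box H/ACA particles, was called, at 4 h (0.50, adjusted p = 0.0384, limma), and the list's median was 0.08 there.

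Of 20 genes of mTOR and translational control, Mycn, a Myc family transcription factor, fell by 1.02 at 4 h (adjusted p = 0.000514), by 0.58 at 3 days (adjusted p = 0.00696) and by 0.65 at 10 days (adjusted p = 0.00265, limma). Eif4ebp1, the repressor of the cap-binding factor eIF4E, rose at 3 days (1.22, adjusted p = 0.00016, limma). Rps6ka1, a kinase of the ERK pathway, rose at 3 days (0.74, adjusted p = 0.00989) and 10 days (0.71, adjusted p = 0.0131, limma). Of 72 mitochondrial ribosomal protein genes, 64 were below 0 at 4 h, as were 49.3% of all genes. Their median was -0.23, with no call there (limma, 8 at an unadjusted p under 0.05). Mrps6, a mitochondrial small-subunit gene, rose at 1 day (0.92, adjusted p = 0.0371) and 3 days (1.42, adjusted p = 0.000203, limma).

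Markers of other cells moved over the same days, and some were lower at 4 h, as the members were. Beside the counts below, 49.3% of all genes lay below 0 at 4 h. The share of all genes called by limma was 2.18% at 4 h, 1.18% at 1 day, 7.36% at 3 days and 7.13% at 10 days. Of 15 endothelial markers 11 were below 0 at 4 h and 4 were called lower (limma), with a median log2 fold change of -0.40, and their summed FPKM was 131 to 147 at 4 h, against 172 to 192 in sham right. All 12 markers of homeostatic microglia were below 0 at 4 h and 2 were called lower, with a median of -0.34 and sums of 90.6 to 116 at 4 h, against 124 to 154 in sham right. Of 14 markers of resting astrocytes and of 15 of myelin, 2 each were called lower at 4 h. All 7 choroid plexus genes tested were below 0 at 4 h without a call (limma, 0 at an unadjusted p under 0.05), and their sum was 1.99 to 587 at 4 h, against 148 to 274 in sham right. Of 17 markers of reactive astrocytes tested, 2 were called higher at 4 h, 13 at 1 day, 15 at 3 days and 11 at 10 days (limma). The summed FPKM of 14 monocyte and macrophage markers was 11.5 to 21.5 at 4 h, 35.1 to 51.6 at 1 day, 135 to 293 at 3 days and 637 to 2192 at 10 days. It was 14.1 to 25.2 in contralateral left and 17.8 to 25.1 in sham right. Of the 13 tested, 9 were called higher at 3 days and 10 at 10 days. The sum of 15 markers of activated microglia was 1501 to 2243 at 3 days and 3819.8 to 5875 at 10 days, against 520.1 to 691 in sham right, with 11 called higher at 3 days and 15 at 10 days. The sum of 15 cell cycle genes was 73.1 to 123 at 3 days, against 34.4 to 38.8 in sham right, with 12 of 13 called higher. The sum of 20 neuron markers was 2004 to 2073 at 4 h, against 1788 to 1953 in sham right, and none of them was called at any time (limma, smallest adjusted p = 0.173, at 10 days, with 5 at an unadjusted p under 0.05 there). The part of these cells in the values of Rplp0, Rps27l and the other members was not tested.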

How the data were processed

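Total RNA libraries were made with the VAHTS Total RNA-seq kit from micro-punched tissue, per the labels' protocols. Trimmomatic 0.36, HISAT2 2.1.0, StringTie 1.3.4d and the build GRCm38 are named in the submitters' processing notes. The authors deposited 1 table of FPKM values per gene and library, normalised for transcript length and mapped fragments. Its p-value and q-value columns come from the authors' test, whose groups are not given in the sources used here, and were not used. It holds no counts, so the depth is unknown and no counting interval is given. The copy used ends inside a line, and its 34921 complete rows were used.

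log2(FPKM + 1) was fitted in limma 3.58.1 (R 4.3.3, statmod 1.5.0) with 1 mean per group over all 18 libraries, with trend and robust empirical Bayes and two-sided contrasts. Genes whose FPKM reached 1 in 3 libraries were tested, and p-values were adjusted by Benjamini-Hochberg over all 14016, with 0.05 as the threshold. The fit was tested on simulated data. Annotation came from GENCODE M21 by Ensembl identifier, with 34797 rows matched, and start regions from RefSeq.

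The members and lists were chosen with earlier results of these data known. Values are named for the 6 highest members, the 3 highest and 3 lowest fold changes against sham right in each comparison, members that failed the filter, a panel of paralogs and of members with other roles, and called genes of the other lists. Members called between times, and those named for 10 day library 5, were named after their values were seen. Some members enter the counts and are not reported by name here.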

Additional observations from a re-analysis of the deposited data

Results flagged for a closer look

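The members below differed between stroke times by limma's test of the difference itself, so that their effects against sham right differ between those times. All were higher at the later time in log2 fold change. Both comparisons were added after the data had been seen. Against sham right, only Rplp0 at 3 days was called. At 3 days against 4 h these were Rplp0 (0.87, adjusted p = 0.00356) and Rps27l (1.097, adjusted p = 0.0473, limma). They are 2.63% of the members, where 9.36% of all genes were called higher. The call of Rps27l held in 1 of 6 fits without 1 library.

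At 10 days against 4 h 13 members were called higher (17.1%), where 9.58% of all genes were called higher and 15.8% in either direction. The smallest adjusted p-values there belonged to Rpl7 (0.86, adjusted p = 0.00699) and Rplp0 (0.76, adjusted p = 0.00811, limma). Small-subunit genes included Rps27l (1.301), Rps26 (1.16) and Rps4x (0.81), with limma adjusted p-values from 0.0140 to 0.0204. Large-subunit genes included Rpl39 (1.00), the Rpl32 row named Rpl32l (0.88), Rpl10a (0.63), Rpl10 (0.59) and Rpl6 (0.59), with limma adjusted p-values from 0.0140 to 0.0457. Rpl6l, annotated as a pseudogene, differed by 0.75 (adjusted p = 0.0168, limma).

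Only Rplp0 and Rpl7 of the 13 members called kept the call at 10 days against 4 h in all 6 fits without 1 library. Without 4 h library 6 the other 11 lost it. With each library centred on the median of the members, none of the 13 was called, where 2.88% of all genes were. Their differences were then 0.29 to 1.01.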

How the results depend on the processing

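The median fold change of the members at 4 h was below 0 in every alternative run, from -0.68 with contralateral left as the control to -0.29 without 4 h library 6, apart from centring on the member median, which sets it near 0 by construction (-0.09). The depth is unknown, so what it limits cannot be stated. Of 208 counts of calls, 63 moved by over 1.5 times, and of 848 values of named members 79 lost a call, 17 gained one and 40 changed sign. Of 184 medians 68 moved by over 1.5 times or changed sign (15 changed sign), and 3 moved by more than the SD between libraries. With contralateral left as the control the median was -0.21 at 3 days and -0.18 at 10 days. The causes of these changes were not tested.

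The numbers of members called follow, each with the percent of all genes tested that the same fit called. Without contralateral left library 5 and 10 day library 5 there were 16 at 4 h (12.9%). At 3 days it was 2 with no filter (3.22%), 3 in a fit of only the 2 groups (13.1%), and 0 with median-ratio scaling (6.52%), with contralateral left as the control (9.99%) and when centred (1.31%). At 10 days it was 1 when rescaled without mitochondrial genes (6.1%), with median-ratio scaling (7.89%) and without trend and robust (7.17%), and 3 without both libraries (7.33%). For contralateral left, leaving out both gave 38 (19.7%). At 3 days against 1 day it was 1 with no filter (2.19%), rescaled (4.47%) and in the fit of 2 groups (4.6%), and 2 without both libraries (9.2%). At 3 days against 4 h it was 1 with an FPKM of at least 5 (7.94%), 5 rescaled (8.56%), 1 with median-ratio scaling (10%), 8 in the fit of 2 groups (11.4%), 28 without both libraries (19.4%) and 0 centred (0.742%). At 10 days against 4 h it was 8 with no filter (5.87%), 3 in the fit of 2 groups (6.84%), 69 without both libraries (20.4%) and 0 centred (2.88%). At 10 days against 1 day it was 1 rescaled (6.01%), with median-ratio scaling (8.39%) and without trend and robust (7.23%), and 12 without both libraries (8.44%). At any time it was 1 with an FPKM of at least 5 (10.6%), 42 without both libraries (23.6%) and 0 centred (2.43%). Leaving out each library in turn gave 0 to 1 at 3 days (4.85% to 7.49%), 0 to 6 in contralateral left (0% to 8.65%), 1 to 3 at 3 days against 4 h (6.91% to 9.52%), 2 to 16 at 10 days against 4 h (9.9% to 18.5%), 0 to 1 at 10 days against 1 day (5.06% to 8.47%) and 1 to 2 at any time (11% to 14.8%).

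The labels do not state that a replicate number pairs samples, although contralateral left and sham right libraries 1 and 3 may share mice (correlations of deviations 0.22 and 0.10). Of 23 pairs with the same number, 9 had such a correlation over 0.1 across all genes tested (-0.23 to 0.41) and 17 across the members (-0.31 to 0.71). With 3 libraries per group and members that shift together, these correlations cannot show whether libraries share mice. As the labels state no pairing, the fit of all libraries used none. Numbers 4, 6 and 8 occur in 1 library each, so a block by number fits 1 day library 4, 4 h library 6 and 3 day library 8 exactly. These libraries then add nothing to the comparisons. Number 5 is carried only by contralateral left library 5 and 10 day library 5. With the replicate block the number called was 11 at 10 days (6.45% of all genes), 33 at 10 days against 4 h (8.64%), 6 at 10 days against 1 day (5.24%) and 11 at any time (8.1%). The median of the members was then -0.31 at 4 h, -0.09 at 1 day, 0.05 at 3 days, 0.36 at 10 days and 0.48 in contralateral left, and the fold changes of Rpl22 at 4 h (0.12), Rps14 (0.14) and Rps15 (0.0265) at 10 days, Rps28 (0.27) and Rpl27 (0.13) in contralateral left and Rplp0 at 10 days against 3 days (0.0368) changed sign.

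Other fold changes of named members that changed sign, none of them called in the fit of all libraries, were these. Centred, Rplp0 was 0.25, Rps4l 0.35 and Rpl22 0.35 at 4 h, and Rplp0 0.0257 at 10 days against 3 days. Rescaled, Rps4l was 0.0348 and Rpl22 0.0383 at 4 h. With median-ratio scaling, Rps28 was 0.0234 and Rpl27 0.0407 in contralateral left, and Rplp0 0.0535 at 10 days against 3 days. With contralateral left as the control, Rps4l was 0.0248 at 4 h, and Rps27l -0.21, Rpl22 -0.36 and Rplp0 -0.0865 at 1 day. With both controls, Rps27l was -0.0819 and Rpl22 -0.10 at 1 day. Without both libraries, Rpl13 was 0.18, Rps14 0.34 and Rps15 0.17 at 10 days, and Rps28 and Rpl27 were 0.26 in contralateral left. Over the fits without 1 library, Rps4l ran from -0.20 to 0.0249 and Rpl22 from -0.35 to 0.0988 at 4 h, and Rps27l from -0.24 to 0.20 and Rpl22 from -0.11 to 0.33 at 1 day. At 10 days Rpl13 ran from -1.08 to 0.18, Rps14 from -1.01 to 0.34 and Rps15 from -0.81 to 0.17, each above 0 only without library 5. In contralateral left Rps4l ran from -0.32 to 0.0647, Rps28 from -0.28 to 0.26 and Rpl27 from -0.27 to 0.26.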
